A study of Mus musculus with 7 samples.

Results

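The hairpins mmu-mir-322, mmu-mir-503, mmu-mir-351, mmu-mir-542, mmu-mir-450a-2, mmu-mir-450a-1 and mmu-mir-450b (named without mmu- from here on) form one miRNA cluster on the mouse X chromosome. They were chosen by name, as the members of this cluster, and all 7 had tags among the 685 hairpins with tags. Small RNA had been sequenced in HL-1 cells, an immortalised line of beating mouse atrial cardiomyocytes that derives from an atrial tumour of mice with SV40 large T antigen under the atrial natriuretic factor promoter. The cells were plated sparsely and lysed after 1, 2, 3 or 4 days in culture, with no other treatment, and they passed over these days from a non-beating to a beating culture. The 7 libraries came from 2 independent time courses of this one line, with 2 libraries each for days 1, 3 and 4 and 1 library, of time course 2, for day 2. Libraries were assigned to a time course by the replicate number of their labels, which name no course. The deposited tag counts came to between 4945093 and 6899411 per library, of which 99.48% to 99.77% could be placed on a hairpin. The lists appear to hold only tags already mapped to hairpins by the authors, so this share does not describe the libraries as sequenced.

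A miRNA hairpin is cut by Drosha in the nucleus and by Dicer in the cytoplasm, which leaves a duplex of a 5′ arm (5p) and a 3′ arm (3p). One arm, or at times either, is kept in an Argonaute protein and pairs with messenger RNAs through its seed, bases 2 to 8 counted from its 5′ end, so that a shift of the 5′ end by 1 base gives another seed. The cluster is known for miR-322 and miR-503, which belong with the miR-15/16 family by seed, repress cell cycle genes such as Cdc25a and cyclin genes, and rise when skeletal myoblasts leave the cell cycle. In the postnatal heart the same family is known for restraining cardiomyocyte division.

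In the GRCm38 assembly the cluster lies on the minus strand of chromosome X from 53047997 to 53054349, a stretch of 6353 bp. In the direction of transcription mir-322 comes first (53054255 to 53054349), followed after 200 bp by mir-503 (53053984 to 53054054) and after another 630 bp by mir-351 (53053255 to 53053353). A gap of 3767 bp separates these from mir-542 (53049403 to 53049487), which is followed by mir-450a-2 (53048299 to 53048367), mir-450a-1 (53048154 to 53048244) and mir-450b (53047997 to 53048078). No exon or intron of another GENCODE gene overlapped a hairpin. The long noncoding RNA gene Gm28730 lies between mir-542 and mir-351 on the same strand. The transcript C430049B03Rik, also on this strand, ends 697 bp upstream of mir-322, and the nearest protein-coding gene is Plac1.

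The 13 mature sequences show which known families the arms belong to. They were taken from RefSeq, are written 5′ to 3′, and have the seed in capitals. The first pair is miR-322-5p, with the seed of miR-15 and miR-16, and miR-503-5p, which shares bases 2 to 7 with it.
miR-322-5p: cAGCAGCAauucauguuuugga
miR-503-5p: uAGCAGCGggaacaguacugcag
The 5′ arm of mir-351 has the seed of miR-125a and miR-125b, the vertebrate relatives of worm lin-4.
miR-351-5p: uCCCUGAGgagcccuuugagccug
The 3′ arms of mir-450a-1 and mir-450b have one seed, and that of mir-450a-2 a similar one.
miR-450a-1-3p: aUUGGGAAcauuuugcauaaau
miR-450b-3p: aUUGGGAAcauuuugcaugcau
miR-450a-2-3p: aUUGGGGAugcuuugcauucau
The 5′ arms of the mir-450 hairpins start alike. Both copies of mir-450a give the same 5′ arm.
miR-450a-5p: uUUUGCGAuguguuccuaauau
miR-450b-5p: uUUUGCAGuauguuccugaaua
The remaining arms have seeds found in no other arm of the cluster.
miR-322-3p: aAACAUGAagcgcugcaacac
miR-503-3p: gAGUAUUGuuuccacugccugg
miR-351-3p: gGUCAAGAggcgccugggaac
miR-542-5p: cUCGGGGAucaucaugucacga
miR-542-3p: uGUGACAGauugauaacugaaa

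The cluster gave 870819 tags in the 7 libraries, 2.12% of all placed tags. Its summed level was 21007 ± 5166 CPM, counts per 1000000 placed tags (SD, n = 7). It was 17193 and 17068 on day 1, 22054 on day 2, 18636 and 24785 on day 3, and 16764 and 30550 on day 4, with time course 1 named first in each pair here and below. The day 2 library and the day 3 and day 4 libraries of time course 2 were the 3 highest, and the day 4 library of time course 1 was the lowest. A level is a share of sequenced tags, with no correction for length and no molecular identifiers, and in RNA from a whole culture fewer expressing cells and less RNA per cell cannot be told apart.

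mir-322 gave 49.9% of the cluster's tags, mir-351 24.2% and mir-542 15.1%, while mir-503 gave 5.23%, the mir-450a pair 4.25% and mir-450b 1.30%. Between libraries the shares ranged from 42.7% to 56.2% for mir-322 and from 4.06% to 6.58% for mir-503, its neighbour 200 bp away. Single arms ranged from miR-322-3p, ranked 37 among the 1271 arms with tags, to miR-450a-2-3p, ranked 556.

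**Figure D1:**
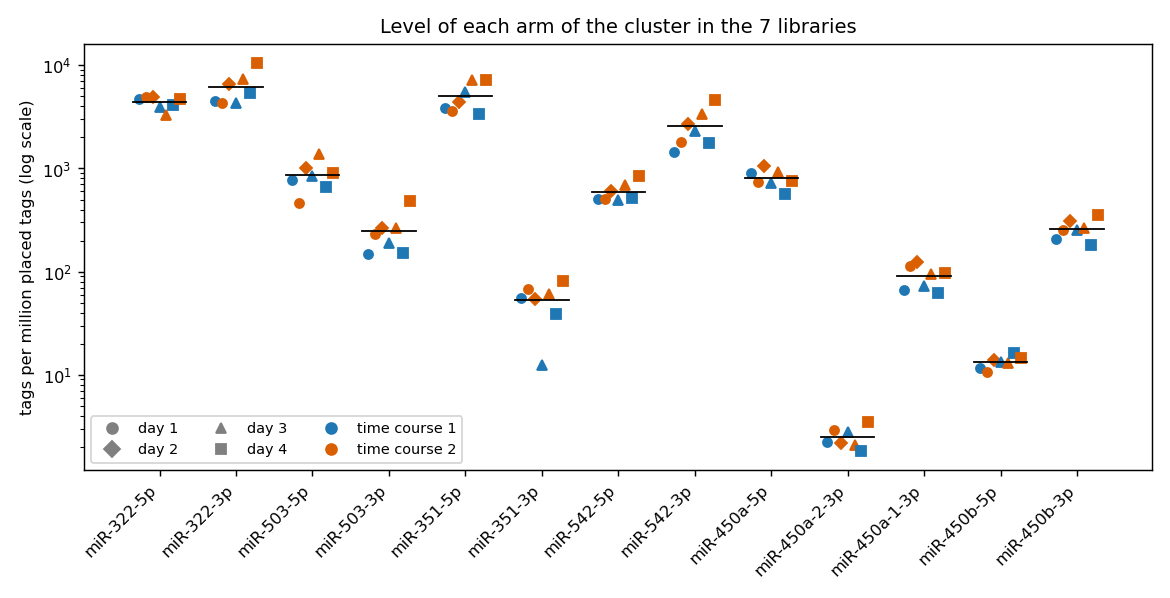
Level of each of the 13 arms in each library, in CPM (counts per 1000000 placed tags) on a log axis. Colour gives the time course, marker shape the day, and black lines the mean of the 7 libraries. miR-322-3p, miR-351-5p and miR-322-5p have the highest means, miR-450a-2-3p the lowest, and the day 3 library of time course 1 lies below the other libraries for miR-351-3p.

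The 5′ arm of mir-322, the member with the miR-15/16 seed, was at 4381.6 ± 637 CPM (SD, n = 7). It was at 4703 and 4979 on day 1, 4983 on day 2, 3924 and 3282 on day 3, and 4088 and 4712 on day 4. Both day 3 libraries lay below the other 5.

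The opposite arm, miR-322-3p, was the most abundant member at 6103 ± 2244 CPM (SD, n = 7). It was at 4492 and 4297 on day 1, 6557 on day 2, 4288 and 7307 on day 3, and 5337 and 10441 on day 4. Both day 4 libraries lay above both day 1 libraries.

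miR-351-5p, the member with the miR-125 seed, was at 5017 ± 1625 CPM (SD, n = 7). It was at 3885 and 3596 on day 1, 4392 on day 2, 5515 and 7149 on day 3, and 3392 and 7191 on day 4. The 2 day 4 libraries lay on either side of all others.

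miR-542-3p was at 2577 ± 1124 CPM (SD, n = 7). It was at 1445 and 1806.5 on day 1, 2692 on day 2, 2313 and 3362 on day 3, and 1762 and 4659 on day 4. The day 4 library of time course 1 was thus close to day 1 and that of time course 2 was the highest.

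miR-503-5p, the second cell cycle miRNA of the cluster, was at 860 ± 285 CPM (SD, n = 7). It was at 780 and 461 on day 1, 1004 on day 2, 840 and 1367 on day 3, and 658 and 907 on day 4. Day 1 of time course 2 was its lowest library and day 3 of time course 2 its highest. miR-450a-5p was close to it at 807 ± 160 CPM (SD, n = 7), with a range of 560 to 1049. Nearly all of its tags, 99.8%, fall on both copies of mir-450a and cannot be assigned to one.

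Of the less abundant arms, miR-542-5p had a mean of 594 CPM, miR-450b-3p 261, miR-503-3p 248, miR-450a-1-3p 90.1, miR-351-3p 53.01 and miR-450b-5p 13.4. miR-450a-2-3p had a mean of 2.49 and only 104 tags in all, against 3698 for the 3′ arm of its sister copy, miR-450a-1-3p. In the order of levels within a library, miR-322-5p, miR-322-3p and miR-351-5p exchanged the first 3 places in 6 of the libraries, and miR-503-5p, miR-450a-5p and miR-542-5p exchanged places 5 to 7. Differences between these neighbours were not tested, apart from that between the arms of mir-322 (below). miR-450a-1-3p was 10th and miR-450a-2-3p last in all 7 libraries.

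Both arms of mir-322 were abundant, whereas the other hairpins favoured one. The share of tags on the 3′ arm of mir-322 was 48.8% and 46.3% on day 1, 56.8% on day 2, 52.2% and 69.0% on day 3, and 56.6% and 68.9% on day 4. Its mean was 57.0% ± 9.03 (SD, n = 7). The 3′ arm was ahead in 5 of 7 libraries and behind in both day 1 libraries, and by an exact two-sided sign-flip permutation test over the 7 libraries its log2 ratio to the 5′ arm, 0.42 ± 0.55 (SD, n = 7), did not pass (p = 0.0938, adjusted p = 0.0938 over the 6 hairpins, with both copies of mir-450a taken as 1). With the tags that carry a mismatch left out, the 3′ arm was ahead in 7 of 7 libraries. Its share was then 62.6% ± 8.74 (SD, n = 7), with a range of 51.8% to 74.0%, and the same exact test gave an adjusted p of 0.0156. This choice removed 23.8% of the tags of miR-322-5p in the sum and 3.16% of those of miR-322-3p, which by itself raises the 3′ share.

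mir-542 and mir-450b gave mostly 3′ arms, 80.2% ± 3.75 and 94.9% ± 1.53 (SD, n = 7). mir-503, the mir-450a pair and mir-351 gave mostly 5′ arms, with 22.6% ± 8.04, 10.3% ± 1.99 and 1.11% ± 0.503 (SD, n = 7) of tags on the 3′ arm. For each of these 5 hairpins all 7 libraries lay on one side of equal use, which the exact sign-flip permutation test puts at its smallest possible p of 0.0156 (adjusted p = 0.0188). Of the 237 hairpins with both arms and at least 50 tags in every library, 89.5% also had all 7 libraries on one side. The test, here and for mir-322, takes the 7 libraries as independent, but they come from 2 time courses and are not fully so. The share for mir-503 was 15.9% and 33.4% on day 1, 21.03% on day 2, 18.3% and 16.2% on day 3, and 18.8% and 34.8% on day 4. Days 1 and 4 of time course 2 stood above the other 5 libraries. The widest 95% Wilson interval for one library's share was 3.48 percentage points, for mir-450b, which covers counting error only.

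**Figure D2:**
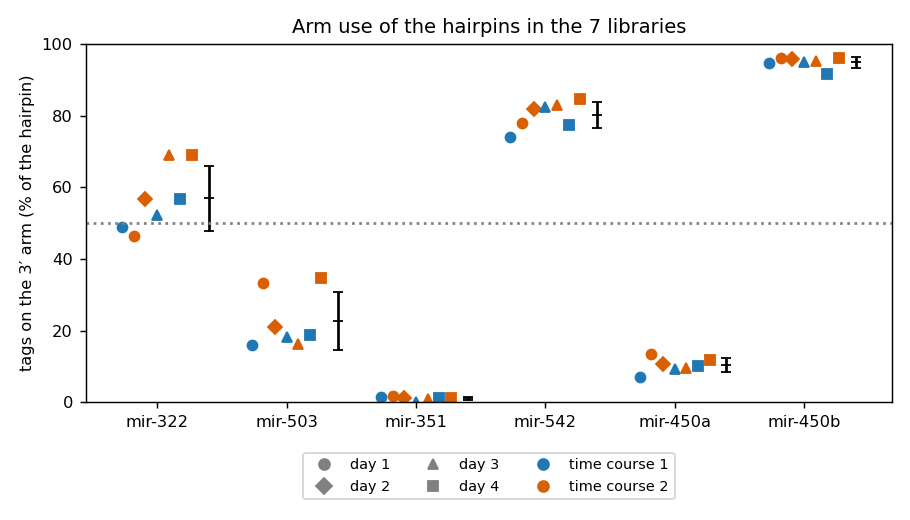
Share of each hairpin's tags on its 3′ arm, in percent, in the 7 libraries. Colour gives the time course, marker shape the day, and black bars the mean ± SD of the 7 libraries, with mir-450a standing for both copies. mir-322 crosses the dotted line of equal use, from 46.3% to 69.0%, and the 5 other hairpins stay on one side of it.

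How much the cluster added to the seeds it shares with other loci was read from bases 2 to 8 of every placed tag. The miR-15/16 seed was carried by 2.85% of placed tags, and miR-322-5p gave 14.4% ± 1.37 (SD, n = 7) of these. miR-15b-5p gave 55.9% ± 3.97 and miR-195a-5p 13.4% ± 1.74, while miR-497a-5p gave 6.61% ± 1.68, miR-16-5p 6.10% ± 1.74 and miR-15a-5p 3.47% ± 0.376 (SD, n = 7 each). The share of miR-322-5p was 15.5% and 15.8% on day 1, 14.5% on day 2, 15.1% and 11.6% on day 3, and 14.3% and 14.2% on day 4. Only day 3 of time course 2 stood apart, below the rest. By bases 2 to 7 alone miR-503-5p joined the group, and both arms together gave 17.0% ± 0.683 (SD, n = 7).

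The miR-125 seed was carried by 4.64% of placed tags. miR-351-5p gave 10.7% ± 3.37 (SD, n = 7) of them, beside 62.7% ± 4.54 from miR-125b-5p and 26.6% ± 3.00 from miR-125a-5p. Its share was 10.2% and 8.10% on day 1, 9.93% on day 2, 9.52% and 16.6% on day 3, and 6.83% and 13.8% on day 4. Days 3 and 4 of time course 2 were the 2 highest. Tags with the seed of any other arm came almost wholly from the cluster, at 99.1% or more, apart from the 100 tags with the seed of miR-450a-2-3p, of which 95 came from it.

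**Figure D3:**
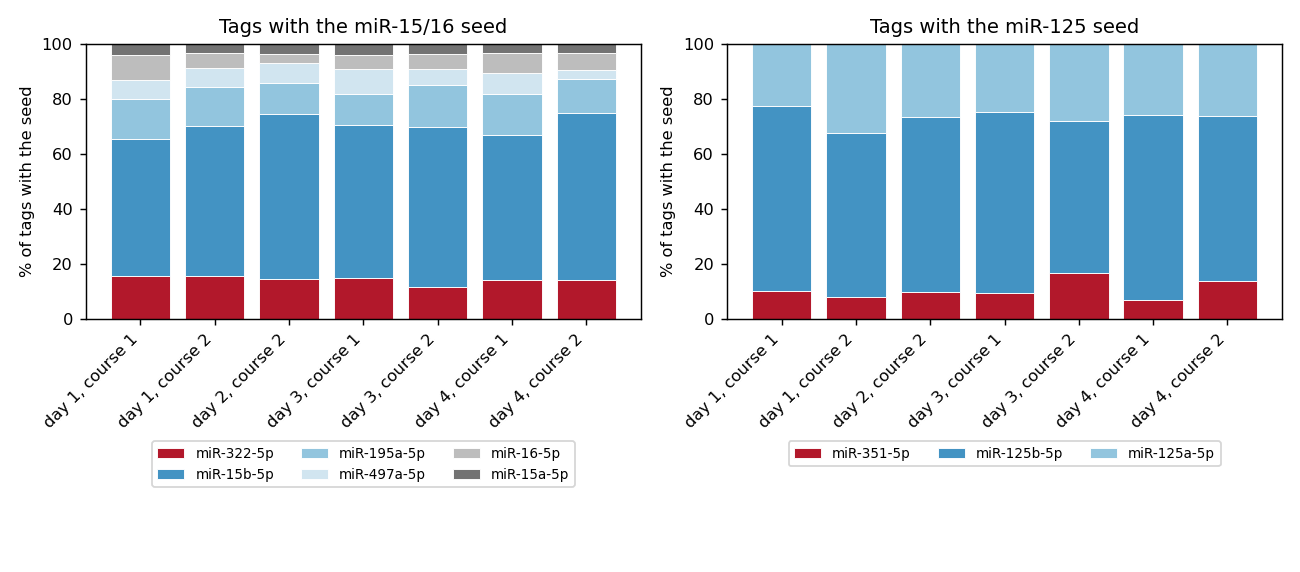
Sources of the tags that carry the miR-15/16 seed and the miR-125 seed, in percent of the tags with that seed, for each library. The member of the cluster is the red part at the base of each bar, 11.6% to 15.8% for miR-322-5p and 6.83% to 16.6% for miR-351-5p.

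Positions of the 5′ ends decide the seed, and they varied most in 4 of the 3′ arms, miR-503-3p, miR-450b-3p, miR-450a-1-3p and miR-322-3p. For miR-503-3p, 68.5% ± 5.95 (SD, n = 7) of tags began 1 nt before the annotated start and 29.5% ± 5.95 at it. The upstream start was in the majority in 7 of 7 libraries, from 60.5% to 78.0%. Its most frequent tag therefore has another seed than the annotated miRNA, as the pair below shows with the seed of each in capitals.
miR-503-3p, start at -1: gGAGUAUUguuuccacugccugg
miR-503-3p, start at 0: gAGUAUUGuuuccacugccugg
The tag with the upstream start and annotated 3′ end made up 57.5% of miR-503-3p tags in the sum of libraries, and that with both ends as annotated 21.9%. Off-start tags made up 71.2% of miR-503-3p in the sum, the 21st highest share of 255 annotated arms with at least 1000 tags, where the median was 3.99% and 22.7% of arms were over 20%.

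miR-322-3p had 3 starts. The annotated start held 81.0% ± 1.55 (SD, n = 7) of its tags, the start at -1 held 8.42% ± 0.426 and the start at -2 held 10.4% ± 1.28. The 3 most frequent tags of these starts differ in their seeds.
miR-322-3p, start at 0: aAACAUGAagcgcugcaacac
miR-322-3p, start at -1: aAAACAUGaagcgcugcaaca
miR-322-3p, start at -2: cAAAACAUgaagcgcugcaaca
Since miR-322-3p is abundant, its start at -2 gave 27162 tags, more than the whole of miR-542-5p, with 24611.

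The 3′ arms of mir-450b and mir-450a-1, which share a seed, varied on both sides of the start. For miR-450b-3p, 18.98% ± 4.38 of tags began at -1 and 14.7% ± 2.15 at +1, and for miR-450a-1-3p 16.2% ± 1.99 and 9.39% ± 1.85 (SD, n = 7 each). The starts of miR-450b-3p give these tags.
miR-450b-3p, start at 0: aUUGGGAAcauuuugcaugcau
miR-450b-3p, start at -1: uAUUGGGAacauuuugcaugca
miR-450b-3p, start at +1: uUGGGAACauuuugcaugcau
By contrast miR-351-5p, miR-503-5p, miR-542-5p, miR-542-3p and miR-450a-5p had 0.843% to 1.89% of their tags off the annotated start in the sum, and miR-322-5p 6.01%.

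At the 3′ ends, miR-351-5p and miR-542-3p ran past their annotated ends. miR-351-5p is annotated at 24 nt, but 47.1% ± 4.15 (SD, n = 7) of its tags had 25 nt and 14.1% ± 1.14 had 26 nt, so that 68.1% in the sum were longer than 24 nt. This was the second highest such share of the 255 arms, whose median was 1.38%. The most frequent tag is the annotated sequence with 1 base more.
miR-351-5p, 25 nt: uCCCUGAGgagcccuuugagccugg
For miR-542-3p, 45.3% ± 4.80 of tags ended 1 nt and 20.6% ± 2.48 ended 2 nt after the annotated end (SD, n = 7), and 11.8% ± 2.88 ended at it.
miR-542-3p, 23 nt: uGUGACAGauugauaacugaaag
miR-450a-1-3p and miR-450b-5p most often ended 1 nt early, in 50.4% ± 7.64 and 48.8% ± 8.04 of tags (SD, n = 7). The other 9 arms ended most often where annotated. Ends off the annotation were common in general, with a median of 65.8% over the 255 arms.

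**Figure D4:**
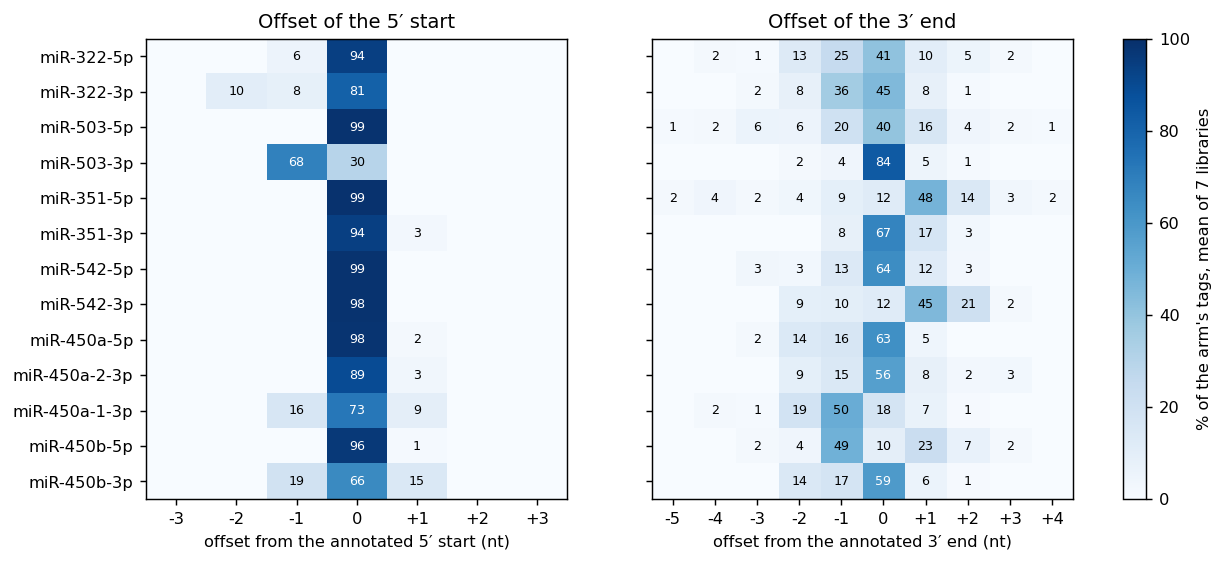
Offsets of tag 5′ starts and 3′ ends from the annotated miRNA, in nt, for the 13 arms. Colour and numbers give the percent of the arm's tags, as the mean of 7 libraries, with shares under 1% left blank. miR-503-3p is the single arm with its main start off the annotation, and miR-351-5p and miR-542-3p have their main end at +1.

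Some tags differed from the hairpin at a base. In miR-450a-5p, U17C (hairpin base first, position counted from the annotated 5′ end, then the base in the tag) was in 10.8% of tags in the sum and in 7.94% to 12.8% in single libraries. Among the 255 arms, 27 (10.6%) had one substitution inside the tag in at least 5% of their tags, and miR-450a-5p ranked sixth. miR-322-5p had tags with a mismatch at 23.7% ± 1.14 (SD, n = 7), the fifth highest share of the 255 arms, whose median was 6.85%. Its substitutions were spread over neighbouring bases, with U17A at 4.36% ± 1.18, U17G at 3.89% ± 1.18, U17C at 3.70% ± 1.39 and U18A at 2.91% ± 0.470 (SD, n = 7). Of all mismatches in cluster tags, 97.8% lay at base 14 of the tag or later, outside the seed. Whether a substitution was present in the RNA or arose in sequencing was not tested.

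Whether the cluster changed, relative to the other miRNAs, as the cultures went from non-beating to beating was examined by comparing day 4 with day 1. Levels are shares of a library's tags, so a rise or fall of all miRNAs together would not show in any comparison of days. In edgeR's quasi-likelihood test over the 757 arms that passed the filter on low counts, which kept all 13 arms of the cluster, no arm was called at a Benjamini-Hochberg adjusted p of 0.05, in the cluster or elsewhere (0% of arms tested). At an unadjusted p under 0.05 there were 75 arms (9.91%), 2 of them in the cluster. DESeq2 called 15 arms, and edgeR with the time course as a block called 9, and neither called an arm of the cluster. The fitted differences of the cluster lay above 0 for 10 of 13 arms, with a median log2 fold change of 0.44 beside -0.04 over all arms tested, and for 9 of 13 when scaled by library totals, where the median of all arms was -0.14.

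miR-322-3p and miR-542-3p, the 3′ arms of 2 of the 3 most abundant hairpins, had the largest fitted differences. miR-322-3p had a log2 fold change of 0.95 ± 0.39 (SE) and miR-542-3p of 1.08 ± 0.46. The edgeR adjusted p of these arms, from the fit without the time course, was 0.455 and 0.479. Within time course 2 alone the log2 differences of their levels were 1.28 and 1.37, and within time course 1 they were 0.25 and 0.29. For the whole cluster the value was 0.84 within time course 2 and -0.04 within time course 1. Both day 4 libraries lay above both day 1 libraries for 3 of 13 arms, miR-322-3p, miR-542-5p and miR-450b-5p (14.5% of all arms tested), and below them for 0 (26.9% of all arms tested). Without the day 4 library of time course 2, the median of the cluster's fitted differences was -0.16.

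miR-322-5p and miR-450a-5p had log2 fold changes of -0.04 ± 0.28 and -0.20 ± 0.33 (SE), with edgeR adjusted p = 0.986 and 0.900. Neither kept its sign with one library left out, as miR-322-5p was at 0.14 without the day 1 library of time course 2 and miR-450a-5p at 0.023 without the day 4 library of time course 1. miR-503-5p had 0.44 ± 0.39 and miR-351-5p 0.60 ± 0.38 (SE), with edgeR adjusted p = 0.765 and 0.667.

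Day 3 against day 1 gave larger differences for the 5′ arms of mir-503 and mir-351. No arm was called by edgeR (0% of 757), with 40 arms (5.28%) at an unadjusted p under 0.05, 2 of them in the cluster. With the time course as a block, edgeR had 86 arms at an unadjusted p under 0.05, 4 of them in the cluster. DESeq2 called 9 arms and edgeR with the time course as a block 10, none of them in the cluster. miR-503-5p had a log2 fold change of 0.99 ± 0.39 (SE), miR-351-5p 0.92 ± 0.38 and miR-542-3p 0.96 ± 0.46. Each had edgeR adjusted p = 0.885 in the fit without the block. The log2 difference of levels of miR-351-5p within time course 1 was 0.51 and within time course 2 it was 0.99, and those of miR-503-5p were 0.11 and 1.57. The cluster's median was 0.39, beside 0.00 over all arms, and 0.17 without the day 3 library of time course 2 or 0.25 without the day 1 library of time course 1. This comparison shares its day 1 libraries with the one before. Both day 3 libraries lay above both day 1 libraries for 5 of 13 arms, miR-503-5p, miR-351-5p, miR-542-3p, miR-450b-5p and miR-450b-3p (11.8% of all arms tested), and below them for miR-322-5p alone (24.3% of all arms tested). Scaling by library totals, in place of TMM (trimmed mean of M values) factors, moved the median log2 fold change of all arms to -0.16, and then 8 rather than 11 of the 13 arms lay above 0. The 3 arms that crossed 0 were miR-450a-5p, miR-450a-2-3p and miR-450a-1-3p.

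Over all arms, edgeR called more between the 2 time courses than between days. The model held day and time course, and the same model called 9 arms for day 4 and 10 for day 3, each against day 1. With day in the model, edgeR called 44 of 757 arms (5.81%), of which 30 (3.96%) were higher and 14 (1.85%) lower in time course 2, and none of the 13 arms of the cluster, with 5 of them at an unadjusted p under 0.05 (23.4% of all arms tested). Fitted differences lay above 0 for 12 of 13 arms, with a median log2 fold change of 0.46 beside -0.01 over all arms, and for 11 of 13 with DESeq2 size factors. Without either day 4 library the median was 0.19. miR-351-3p had 1.19 ± 0.34 (SE, edgeR adjusted p = 0.0523), miR-503-3p 0.94 ± 0.30 (adjusted p = 0.0771), miR-542-3p 0.76 ± 0.25 (adjusted p = 0.0886) and miR-322-3p 0.57 ± 0.22 (adjusted p = 0.148). Of the other 3′ arms, miR-450a-1-3p had 0.62 ± 0.26, miR-450b-3p 0.46 ± 0.28 and miR-450a-2-3p 0.31 ± 0.43. Of the 5′ arms, miR-351-5p had 0.46 ± 0.24, miR-542-5p 0.41 ± 0.25, miR-450a-5p 0.19 ± 0.25, miR-503-5p 0.15 ± 0.29, miR-322-5p 0.02 ± 0.21 and miR-450b-5p -0.11 ± 0.26 (SE), with edgeR adjusted p between 0.275 and 0.967. Whether 3′ and 5′ arms differed was not tested.

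miR-351-3p, the minor arm of its hairpin, lay just outside the threshold and changed sides with the processing. Its level was 55.6 and 68.0 CPM on day 1, 54.2 on day 2, 12.5 and 60.7 on day 3, and 38.9 and 81.1 on day 4. Time course 2 was above time course 1 on each of the 3 days, and the day 3 library of time course 1 stood far below the rest. Without that library or without the day 3 library of time course 2 its log2 fold change was 0.71, with edgeR adjusted p = 0.341 and 0.324, while without the day 1 library of time course 1 it was 1.58, with edgeR adjusted p = 0.000772. DESeq2 gave an adjusted p of 0.0166 for miR-351-3p and of 0.0292 for miR-503-3p on all 7 libraries. The values of miR-503-3p were 148 and 232 CPM on day 1, 268 on day 2, 189 and 264 on day 3, and 152 and 484 on day 4.

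In matched days, 6 of the 13 arms were higher in time course 2 on days 1, 3 and 4 (22.9% of all arms tested). These were miR-503-3p, miR-351-3p, miR-542-5p, miR-542-3p, miR-450a-1-3p and miR-450b-3p. miR-450b-5p was lower on all 3 days (22.3% of all arms tested). For the whole cluster the log2 difference between time courses was -0.01 on day 1, 0.41 on day 3 and 0.87 on day 4.

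**Figure D5:**
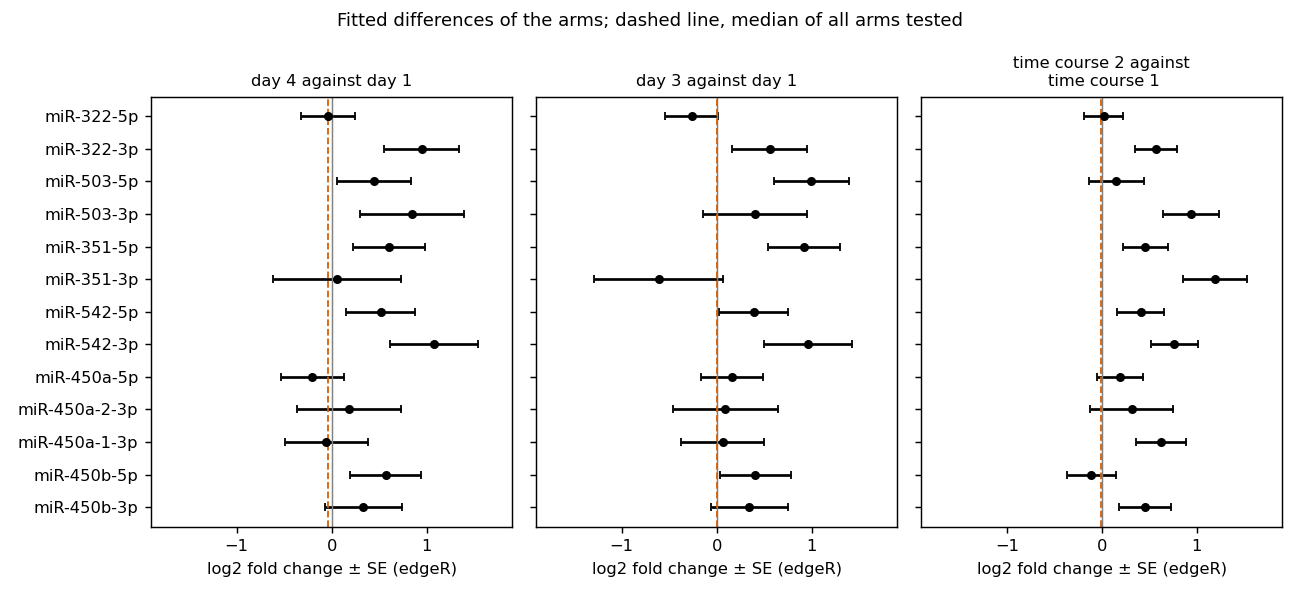
Fitted log2 fold changes of the 13 arms ± SE (edgeR) for day 4 against day 1, day 3 against day 1 and time course 2 against time course 1. The dashed line is the median of the 757 arms tested. Points lie above 0 for 10, 11 and 12 of the 13 arms, and none passed the adjusted threshold.

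Shares within a hairpin or arm were compared with limma on log2 odds, for features with at least 50 tags in each library. Start and end shares in these fits count tags off the arm's most frequent position over all libraries, not off the annotated one. For arm use, 0% of 222 hairpins were called between day 4 and day 1, with 22 (9.91%) at an unadjusted p under 0.05. mir-322 had a log2 odds difference of 0.91 ± 0.57 (SE) towards the 3′ arm (limma adjusted p = 0.698), the largest of the 6 units of the cluster. For 5′ starts, 0% of 334 arms were called, with 34 (10.2%) at an unadjusted p under 0.05. miR-503-3p had 0.61 ± 0.30 (SE, limma adjusted p = 0.674), away from its main start at -1. For 3′ ends, 0% of 334 arms were called, with 39 (11.7%) at an unadjusted p under 0.05. The largest difference of the cluster was that of miR-450b-5p, 0.94 ± 0.30 (SE, limma adjusted p = 0.339), an arm of 66 to 99 tags per library.

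Between time courses, limma called the arm use of 5 of 222 hairpins (2.25%), 3 towards the 3′ arm (1.35%) and 2 towards the 5′ arm (0.901%), with 38 (17.1%) at an unadjusted p under 0.05. None of the cluster was among the 5 or the 38, where mir-503 had 0.80 ± 0.44 (SE, adjusted p = 0.369) and mir-351 had 0.76 ± 0.45 (SE, adjusted p = 0.393). The 3′ ends of 0% of 334 arms were called, with 30 (8.98%) at an unadjusted p under 0.05, and miR-450b-3p had 0.49 ± 0.15 (SE, adjusted p = 0.517).

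The relatives by seed, 16 arms of mir-15a, mir-15b, mir-16, mir-195a, mir-497a, mir-125a and mir-125b, were fitted in the same tests. None was called between days. For day 4 against day 1 their median log2 fold change was -0.01, beside 0.44 for the cluster, and the difference between these medians was not tested. miR-15b-5p, the most abundant carrier of the miR-15/16 seed, had 0.20 ± 0.28 (SE, edgeR adjusted p = 0.873), and miR-125b-5p 0.42 ± 0.30 (SE, edgeR adjusted p = 0.668). Between time courses, 1 of the 16 was called, the minor arm miR-125a-3p, which was lower in time course 2 with a log2 fold change of -0.98 ± 0.25 (SE, edgeR adjusted p = 0.0344). This call was lost with no filter on low counts (edgeR adjusted p = 0.0619) and without either day 3 library, either day 4 library or the day 1 library of time course 2 (edgeR adjusted p between 0.0653 and 0.219).

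Among 287 arms outside the cluster with at least 1000 tags, those whose level followed the summed cluster most closely over the 7 libraries were miR-181a-1-3p (Spearman's rho 0.96, Pearson's r of log2 levels 0.96), miR-378c (0.86 and 0.80) and the 3′ arm of mir-669e (0.86 and 0.79), a hairpin of a repeated family whose tags are partly shared between copies. miR-301a-3p had the same rho with a lower r (0.74). miR-181a-1-3p was at 90.1 and 90.3 CPM on day 1, 117 on day 2, 95.1 and 135 on day 3, and 82.9 and 137 on day 4. Its lowest and highest libraries were those of the cluster. All values of a library share its preparation and its total, so these are descriptions.

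Markers of the labelled cell type were abundant. The muscle hairpins mir-1a, mir-133a, mir-208a and mir-499 together held 9.55% ± 0.777 (SD, n = 7) of placed tags, although mir-499 was at 8.22 CPM. Hairpins listed for smooth muscle and cardiovascular tissue, mir-143 and mir-145, held 15.1% ± 0.641 (SD, n = 7), and they do not mark cardiomyocytes in particular. Of the other lists, blood markers reached at most 8.14 CPM in any library, liver markers 5.63, epithelial markers 13.8 and neuronal markers 35.9, and the endothelial mir-126a was between 483 and 922 CPM. Their part in the results was not tested.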

How the data were processed

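The authors enriched small RNA from HL-1 cells and sequenced it on the SOLiD system. They deposited, for each of the 7 libraries, a list of tag sequences with the count of each tag, unnormalized. Per the labels the genome build was mm9. The lists hold no coordinates or names. The study's methods describe mapping in colour space with the SOLiD Small RNA Pipeline to miRBase hairpins, from a short anchor of each tag that was then extended, with mismatches and multiple loci allowed up to fixed limits. A script of the authors then accepted or refused mismatches by the quality of the colour calls, which can change how many mismatched tags a miRNA keeps.

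Each tag was placed by its best ungapped hit, with at most 2 mismatches, on mouse hairpins (1005 from RefSeq and 217 from GENCODE M21, GRCm38), and counts of tags with several best hits were divided equally. Of 41180696 tags, 92.9% matched without a mismatch and 0.339% were not placed. The hairpin of mir-351 was taken from GENCODE. Lines that repeated a tag were summed, and 101 lines without a sequence were left out. All 13 arms matched a RefSeq mature sequence. Tags shared with another miRNA made up 0.0262% of cluster tags.

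Counts per arm were tested with edgeR 4.0.16 (TMM, filterByExpr, quasi-likelihood test, all 7 libraries), shares with limma 3.58.1 on log2 odds (pseudocount 0.5, at least 50 tags per library), and arm preference with an exact sign-flip permutation test. DESeq2 1.42.0 was an alternative. P-values were adjusted by Benjamini-Hochberg over all features tested. The code was tested on simulated data. The members and lists were chosen with earlier results of these data known. By rule, all arms of the cluster, the seed relatives with most tags and the 3 arms most similar in pattern were named.

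The replicate number names an independent repeat of the time course. Residuals of same-numbered libraries correlated (r = 0.404, 0.410 and 0.376 over 757 arms for days 1 and 3, 1 and 4, and 3 and 4), so the number was used as a block in an alternative fit. TMM factors were between 0.922 and 1.11. Reads carry no molecular identifiers, so intervals cover counting error only.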

Additional observations from a re-analysis of the deposited data

How the results depend on the processing

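None of the 13 arms was called between days under any of the alternatives. Over all arms, counts of calls from 0 moved for day 4 against day 1 to 15 with DESeq2 and to 9 with the replicate block (time course), and for day 3 against day 1 to 9 with DESeq2, to 10 with the replicate block and to between 0 and 4 with one library left out (4 without day 3 of time course 2). The block changed no call of the cluster, levels and shares included. Between time courses, the 44 calls became 89 with no filter on low counts, 82 with tags on 1 miRNA only, and 3 to 66 with one library left out, with 3 or 5 without either day 3 library, 25 without day 1 of time course 2 and 60 to 66 without any other. The main fit called 0 of the 13 arms of the cluster. In brackets below are the calls over all arms tested in the same setting. There was 1 with DESeq2 size factors (61 of 757) and 1 without mismatched tags (43 of 738). Taking repeated equal counts of a tag once, an alternative chosen after seeing the data, also gave 1 (65 of 754). There were 2 with DESeq2 (48 of 757), 4 with no filter (89 of 1232) and 3 with tags on 1 miRNA only (82 of 736). With one library left out there were between 0 and 3, the 3 without day 1 of time course 1 (66 of 723). The cause was not tested.

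Arm share calls between days 4 and 1 rose from 0 to 2 with a minimum of 20 tags, to 5 with the replicate block and to between 0 and 1 with one library left out. Between time courses the 5 calls became 23 with a pseudocount of 5, 2 with a minimum of 200 tags, and 3 to 10 with one library left out.

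With one library left out, 42 of 102 log2 differences had values on both sides of 0. 16 of these, all uncalled, changed sign and moved by more than their SE. They were, between day 4 and day 1, miR-503-3p (-0.23 to 1.47), miR-351-5p (-0.052 to 1.07), miR-450a-2-3p (-0.39 to 0.57), miR-450a-1-3p (-0.43 to 0.51) and miR-450b-3p (-0.26 to 0.76), the arm shares of mir-450b (-0.90 to 0.28) and mir-503 (-0.51 to 0.90), the start share of miR-503-5p (-0.43 to 0.32) and the end shares of miR-351-5p (-0.12 to 0.53) and miR-542-3p (-0.52 to 0.26). Between day 3 and day 1 they were miR-351-3p (-2.13 to 0.11) and miR-125a-5p (-0.0068 to 0.86). Between time courses they were miR-125b-5p (-0.46 to 0.018), miR-125a-5p (-0.14 to 0.45) and the end shares of miR-351-5p (-0.26 to 0.17) and miR-450b-5p (-0.16 to 0.40). Without mismatched tags the share of miR-322-5p in the miR-15/16 seed was 12.7%, and miR-450a-5p had 42.2% of its ends off the annotation. The 5 arm preferences that passed kept their side under every alternative run. Depth limits miR-450a-2-3p, with 9 to 24 tags per library.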

Other observations

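Tags that overlapped neither annotated arm by 10 bases or more were rare in the cluster. They made up 0.423% of the tags of mir-503 (193 tags) and 0.271% of those of mir-450a-1 (55 tags), and 0.0389% or less of those of each other hairpin. On mir-503 the most frequent was a tag of 18 nt that begins at the base after the 5′ arm, with 109 tags. On mir-322 it was a tag of bases 43 to 60 of the hairpin, which begins on the last 2 bases of the 5′ arm (bases 23 to 44) and ends at the base before the 3′ arm. It had 137 tags and is shown here because its bases 2 to 8, in capitals, are the seed of the annotated miR-503-3p.
mir-322, bases 43 to 60: gAGUAUUGccaagguuca
No tag of at least 18 nt matched the opposite strand of any of the 7 hairpins without a mismatch. The paper's methods look for antisense loci among tags that did not map to miRBase hairpins. The deposited lists appear to hold only tags that did map, so whether the cluster gives antisense RNA cannot be told from them.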
